A study of Homo sapiens with 6 samples.

Results

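RIP-seq, the sequencing of RNA that comes down with an antibody, was applied to the protein RBM8A in untreated AGS cells, an established line from a human gastric adenocarcinoma, labelled as wild type. The series held 3 immunoprecipitates with an anti-RBM8A antibody and 3 inputs, and each immunoprecipitate had its own peak list, called by the authors. Inputs were not analysed here, no immunoprecipitate with a control antibody was among the samples, and nothing in the labels tells whether replicates were grown separately, which means that their spread could be purely technical. Described here are the peaks on the short arm of chromosome 19, chosen as peaks of chromosome 19 with a summit below position 25000000. They numbered 266 of the 5437 peaks in all: 70 of 1480 in replicate 1, 116 of 2155 in replicate 2 and 80 of 1802 in replicate 3. Positions are hg19 coordinates counted from 1, peaks carry no strand, and no annotation or genome of that build was used, so that peaks are identified by position and not by gene.

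RBM8A, or Y14, belongs to the core of the exon junction complex. The complex is left on RNA by splicing, a short way upstream of exon junctions, and takes part in export, translation and nonsense-mediated decay of the RNA. Chromosome 19 is known as the most gene-dense human chromosome. RIP without crosslinking, the procedure in the labels' protocols, recovers whole RNA fragments held by the protein or by its partners, so a peak is a stretch of recovered RNA and not a binding site at base resolution.

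Peaks lay more densely on the short arm than on the other chromosomes in every replicate. The density on the short arm was 2.80, 4.64 and 3.20 peaks per Mb in replicates 1, 2 and 3, a mean of 3.55 ± 0.968 (SD, n = 3). On the long arm it was 2.64, 3.31 and 2.67 peaks per Mb, and on chromosomes 1 to 22 and X without chromosome 19 it was 0.540 ± 0.101 (SD, n = 3). The short arm was denser than the other chromosomes by 3.01 ± 0.873 peaks per Mb, and the lowest of its values lay above the highest of theirs. Against the long arm the difference was 0.675 ± 0.596 peaks per Mb (SD, n = 3), positive in 3 of 3 replicates, and the values of both arms overlapped. The two-sided exact sign-flip permutation test over the 3 within-list differences gave p = 0.25 for both contrasts, which is the smallest p that 3 lists allow, so no comparison of this kind could pass 0.05. The difference from the long arm was 0.163, 1.33 and 0.534 peaks per Mb in replicates 1, 2 and 3, and its mean without replicate 2 was 0.348. Limited to a −log10 q of 5 or more it was 0.134, positive in 2 of 3 replicates, with a fold of at least 5 it was 0.220, and per span from the first to the last summit it was 1.22. The difference from the other chromosomes was 0.790 and 0.926 peaks per Mb under those 2 thresholds, positive in 3 of 3 replicates. Fewer peaks remained in every set under them. The short arm's mean share of the list was then 8.19% and 6.95%, against 4.85% of all peaks. Densities were not adjusted for the number or expression of genes.

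By the median, peaks of the short arm were narrower and had deeper summits than those of the other chromosomes. Neither of these differences had a common direction against the long arm. Their median width was 1290.5, 1176 and 1478.5 bp in replicates 1, 2 and 3, which differed from the median of the other chromosomes by -623.5, -417 and -388 bp. Peaks of at least 10 kb numbered 1, 1 and 3, or 2.01% ± 1.53 (SD, n = 3), against 10.1% ± 1.53 on the other chromosomes. The widest peak spanned 17171 bp, whereas the widest on the other chromosomes reached 460298 bp. The median width differed from that of the long arm by -385.5, -124 and 359.5 bp. On the long arm 2.88% ± 2.41 of peaks (SD, n = 3) reached 10 kb, and the widest spanned 21435 bp. The depth of a summit is given as its pileup, the number of fragments stacked there, worked back from the fold and p-value in the lists. The median pileup was 8, 8 and 7 fragments on the short arm and 6 in every replicate on the other chromosomes. A pileup of at least 10 was reached by 34.1% ± 1.12 of short-arm peaks and by 23.3% ± 0.572 of the others (SD, n = 3). This difference was 10.1, 10.6 and 11.6 percentage points, the same direction in 3 of 3 replicates, with an exact sign-flip p = 0.25. Limited to a −log10 q of 5 or more it shrank to 3.07 points, and the median pileup then differed by 0.667, positive in 2 of 3 replicates, in place of 1.67. Against the long arm, the same share differed by -1.77 ± 5.41 points (SD, n = 3), with a direction that varied between replicates. The highest pileups went the other way. They were 32, 56 and 35 fragments on the short arm in replicates 1, 2 and 3. On the long arm they were 117, 153 and 123, and on the other chromosomes, which hold far more peaks, 188, 253 and 238.

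The expected level, which the caller sets against the pileup, was also higher on the short arm than on the other chromosomes. Against the long arm it had no common direction. In each list many summits had the lowest expected level of the list, 0.422, 0.400 and 0.374 fragments in replicates 1, 2 and 3. Summits above that floor made up 67.7% ± 9.72 of the short arm's peaks and 54.0% ± 5.48 of those on the other chromosomes (SD, n = 3), a difference of 9.18, 14.5 and 17.6 points. On the long arm they made up 69.3% ± 7.17 (SD, n = 3). The short arm minus the long arm was -3.97, -4.51 and 3.72 points. The fold, which is the pileup plus 1 over the expected level plus 1, had a median of 4.30, 4.29 and 3.97 on the short arm. That median was above the one of the other chromosomes by 0.184 and 0.212 in replicates 1 and 2 and equal to it in replicate 3. From the median of the long arm it differed by 0.0815, 0 and -0.200. The sources used here do not name the sample behind the expected level.

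**Figure D1:**
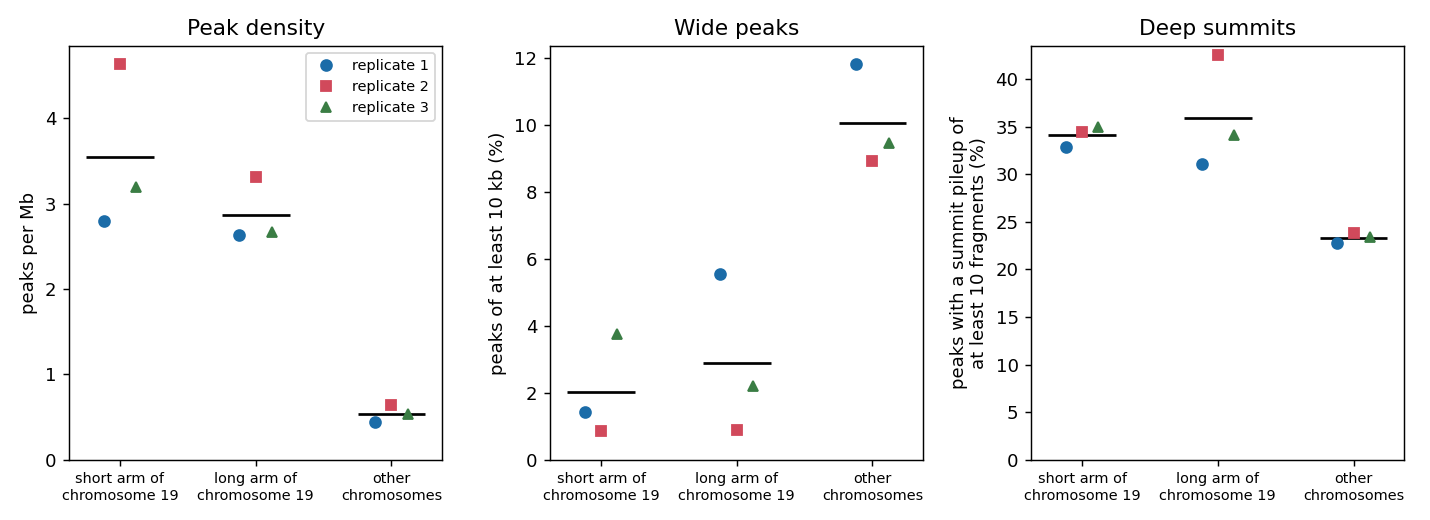
Peaks per Mb, percent of peaks of at least 10 kb and percent of peaks with a summit pileup of at least 10 fragments (vertical axes) on the short arm of chromosome 19, the long arm and the other chromosomes (horizontal axis). Points are the 3 replicates and lines their means; the short arm lies at 2.80 to 4.64 peaks per Mb, above the other chromosomes in every replicate, and overlaps the long arm in each panel.

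The peaks did not cover the arm evenly. Of 25 windows of 1 Mb, 19 held a summit in any list, 15 held one in every list and 6 held at least 5 in every list. The window from 10 to 11 Mb had 10, 11 and 10 peaks in replicates 1, 2 and 3, close in number although replicate 2 had more peaks overall. The window from 2 to 3 Mb had 12, 13 and 6, and that from 1 to 2 Mb had 6, 19 and 11. No summit lay beyond 19632207 on the short arm, and the first summit of the long arm lay at 30313846, so that the limit at 25000000 falls inside a stretch without peaks. Other long stretches without a peak ran from 8551837 to 10221204 (1.67 Mb), directly before the window from 10 to 11 Mb, and from 11557998 to 12757535 (1.20 Mb).

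Union regions, made by joining overlapping peaks of the 3 lists, were grouped into clusters wherever gaps were at most 50 kb. The 170 union regions formed 59 clusters, of which 27 held a peak of every list. In 5 clusters each list had at least 3 peaks, and these held 68 of the 266 peaks, or 32.9%, 21.6% and 25% of the short arm's peaks in replicates 1, 2 and 3. With the cluster that holds the deepest summit, they are called clusters A to F in order along the arm. The criterion of 3 peaks per list was chosen after the data were seen. The 6 clusters spanned 315.4 kb together and held 29.7% of the peaks.

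Cluster A, chr19:2110882-2151271, had 6, 6 and 3 peaks in replicates 1, 2 and 3 in a span of 40.4 kb. At its left end the summits of the 3 lists lay within 48 bp of each other, with pileups of 20, 17 and 13 fragments. A second position had summits at 2115281, 2115379 and 2115279 with pileups of 22, 13 and 13. Cluster A also held a peak of 12560 bp, found in replicate 1 alone.

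Cluster B, chr19:3976532-3985436, was the most compact, with 4, 2 and 5 peaks in 8.91 kb. All 11 of its peaks had a pileup of at least 18, and no summit was at the floor. The deepest summit of the whole arm lay here, with pileups of 32 (exact 95% Poisson interval 21.9 to 45.2), 56 (42.3 to 72.7) and 35 (24.4 to 48.7) fragments at 3981428, 3981425 and 3981419. These 3 summits lay within 9 bp of each other. Replicate 2 had 1 peak of 5499 bp where replicates 1 and 3 had 3 and 4 separate peaks. The folds of the cluster were 2.29 to 4.96, over expected levels of 4.23 to 11.2 fragments.

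Clusters C and D lay in the window from 10 to 11 Mb. Cluster C, chr19:10765334-10799829, had 4, 5 and 3 peaks, with pileups of 7 to 25 and no summit at the floor. Several of its summits recurred in 2 lists, such as those at 10794084 in replicate 2 and 10794136 in replicate 3, but its only region in all 3 lists had no base that all 3 lists covered. Cluster D, chr19:10883216-10940997, had 3, 4 and 3 peaks and was shallow: pileups ran from 4 to 11, and 7 of its 10 peaks were at the floor. The other peaks of the window lay in a region found in all 3 lists, chr19:10506338-10511410, and in 6 scattered peaks between 10221205 and 10284610. Over the whole window the 31 peaks had widths of 396 to 7600 bp, pileups of 4 to 25 and folds of 2.82 to 6.33.

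Cluster E, chr19:11101999-11233939, was the longest of the 6 and had 5, 6 and 7 peaks in 131.9 kb, with pileups of 4 to 15. Cluster F, chr19:16186936-16228863, had 5, 4 and 4 peaks. Its first summits, at 16187509, 16187490 and 16187483, lay within 26 bp of each other and had pileups of 23, 33 and 28. A second set of summits, at 16192850, 16192815 and 16192827, lay within 35 bp of each other, with pileups of 24, 28 and 21. These 6 were the only peaks of cluster F with a pileup of at least 10, and their folds were 2.54 to 4.78. The other 7 had pileups of 4 to 9.

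**Figure D2:**
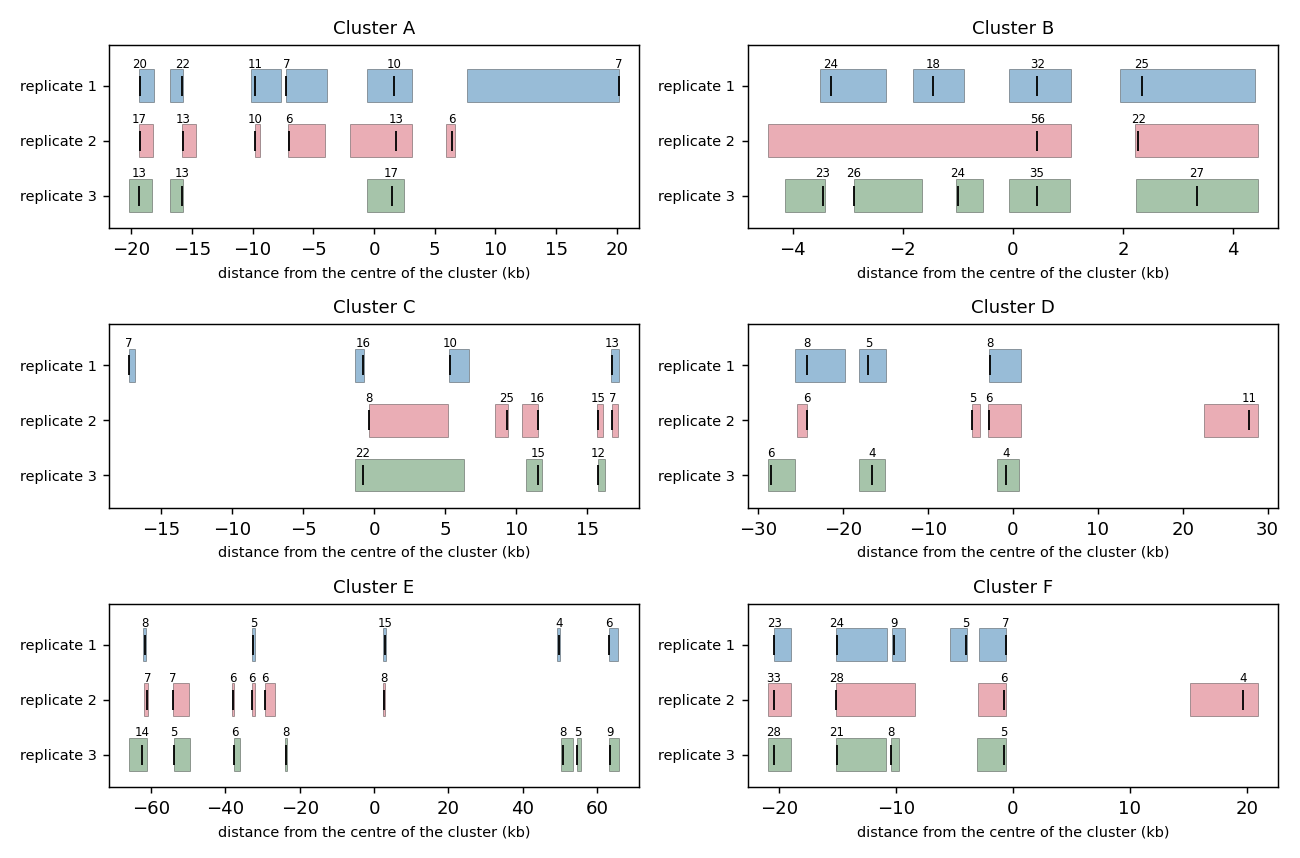
Peaks of clusters A to F in the 3 replicates (rows), by distance in kb from the centre of the cluster (horizontal axis, a different scale in each panel). Boxes are peaks, black ticks summits and numbers the pileup in fragments; the summits at the left of clusters A and F and the summit of 32, 56 and 35 fragments in cluster B line up in the 3 rows, while cluster D has pileups of 4 to 11.

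Some clusters belonged to 1 list. Of the 59 clusters, 18 were of this kind, 4 of replicate 1, 10 of replicate 2 and 4 of replicate 3. The 5 of them with more than 1 region were all of replicate 2, which had 116 of the 266 peaks. Clusters were formed on the short arm alone, so these counts have no share elsewhere beside them. The largest cluster of 1 list, chr19:6364787-6421721, held 7 peaks of replicate 2, with pileups of 4 to 18 and folds of 3.44 to 6.37, and no peak of the other lists. These peaks were thus not all shallow, and the 22 peaks of replicate 2 in such clusters reached a pileup of 28.

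Folds of 5 or more were rarer among the deepest summits than among all peaks of the short arm. In replicates 1, 2 and 3, 8, 7 and 10 peaks had a pileup of at least 20, and 3 of these 25 had a fold of at least 5. Among all short-arm peaks, 30%, 28.45% and 30% had such a fold in replicates 1, 2 and 3. The lists did not admit the same folds at every depth. The lowest fold was 2.29 among the 25 deep summits and 3.44 among short-arm peaks with a pileup of 4. The 25 deep summits lay in 9 clusters, and 10 of them lay in cluster B, which was lettered for its depth. The fold was 8 or more at 7 peaks, and 2 of these had a pileup of at least 20. Of all 266 peaks, 25 (9.40%) had such a pileup. These shares are not comparable, because a shallow summit cannot reach a fold of 8 even over the floor. The highest was 12.25 in replicate 3 at 11553933, with a pileup of 22 over an expected level of 0.878. It was followed by 10.0 in replicate 2 at 2132898 and 9.60 in replicate 3 at 19609504, both with a pileup of 13, over expected levels of 0.400 and 0.459. The next was 9.26 in replicate 1 at 2111804, with a pileup of 20.

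**Figure D3:**
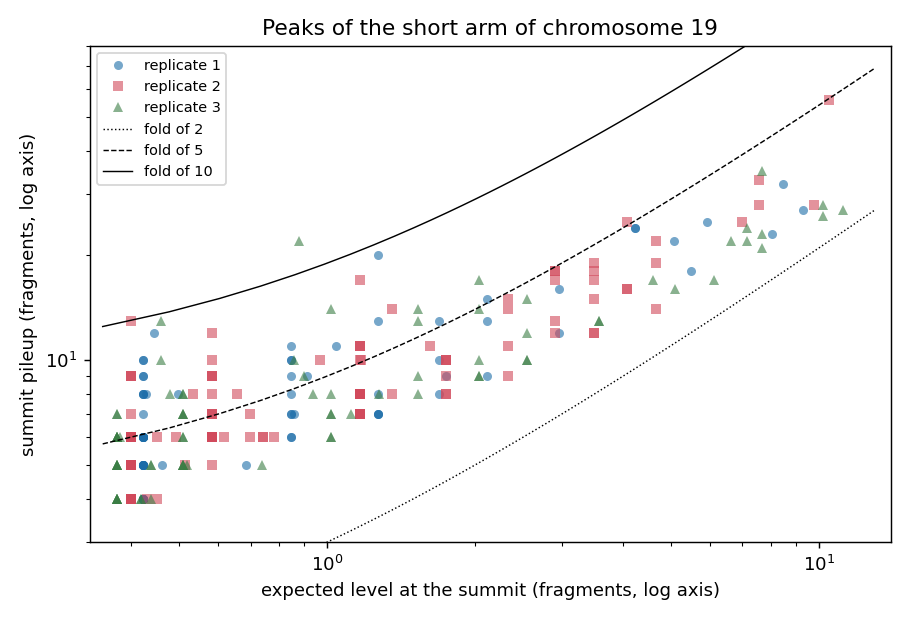
Summit pileup against the expected level at the summit, both in fragments on log axes, for the 266 peaks of the short arm, with curves for folds of 2, 5 and 10. Points are peaks, marked by replicate. The deepest summit, of 56 fragments, has a fold of 4.96 over an expected level of 10.5, and 3 of the 25 summits with a pileup of at least 20 have a fold of at least 5.

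The next comparison asked how often peaks of the short arm recurred between replicates. Peaks overlapped by at least 1 bp in both other lists numbered 20 of 70 (28.6%), 17 of 116 (14.7%) and 23 of 80 (28.8%) in replicates 1, 2 and 3. Over the whole lists, the same shares were 32.4%, 22.2% and 26.5%. The short arm was thus below the share of the whole list in replicates 1 and 2 and above it in replicate 3. On the long arm 43.3%, 32.7% and 38.5% of peaks recurred. The short arm minus the long arm was -14.8, -18.1 and -9.71 percentage points, with a mean of -14.2 ± 4.22 points (SD, n = 3; exact sign-flip p = 0.25). When 50% of both peaks had to overlap, it was -4.92 points. That direction depended on what counts as shared. With summits required to lie within 100 bp, 6 peaks of the short arm recurred in each list and 2 of the long arm, and the difference became 5.02 points. It was 6.58 points when the lists were limited to a −log10 q of 5 or more.

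Peaks with no counterpart in either other list numbered 21, 55 and 27, or 30.0%, 47.4% and 33.8%. The same shares were 39.9%, 51.8% and 47.5% on the other chromosomes and 28.9%, 46.0% and 39.6% on the long arm. The short arm minus the long arm was 1.11, 1.40 and -5.81 points, with no common direction. The short arm minus the other chromosomes was -9.91, -4.35 and -13.7 points. The share was thus lower on the short arm than on the other chromosomes in 3 of 3 replicates (exact sign-flip p = 0.25). From the other chromosomes, the share found in both other lists differed by -2.41 ± 5.40 points (SD, n = 3) with no common direction. The remaining 29, 44 and 30 peaks of the short arm had a counterpart in 1 other list.

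Recurrence was higher at deeper summits of the short arm in every list. Of peaks with a pileup of 4 or 5 fragments, 1 of 17, 0 of 26 and 2 of 22 recurred in both other lists. With a pileup of 6 to 9 these numbers were 7 of 30, 6 of 50 and 4 of 30, and with 10 or more they were 12 of 23, 11 of 40 and 17 of 28. The mean shares were 4.99% ± 4.61, 16.2% ± 6.19 and 46.8% ± 17.3 (SD, n = 3). The same order was seen elsewhere, with means of 14.1%, 30.0% and 65.0% on the long arm and 10.8%, 23.3% and 60.1% on the other chromosomes. The short arm minus the other chromosomes was -8.60, -8.30 and -0.372 points at a pileup of 4 or 5 and -6.64, -5.43 and -9.16 points at 6 to 9, lower in 3 of 3 replicates in both classes (exact sign-flip p = 0.25). Against the long arm it was -19.1, -10.5 and 2.42 points at 4 or 5 and -16.1, -11.9 and -13.3 points at 6 to 9. At a pileup of 10 or more the short arm minus the long arm was -12.1, -22.5 and -19.9 points. The short arm minus the other chromosomes was -16.1, -25.1 and 1.30 points. These classes were chosen after the data were seen, and the smallest holds 17 peaks.

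**Figure D4:**
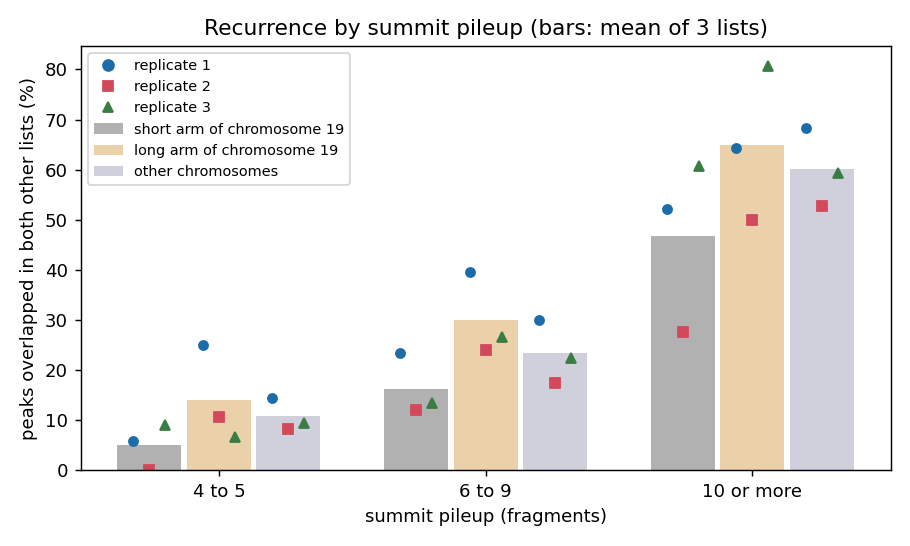
Percent of peaks overlapped by at least 1 bp in both other lists (vertical axis) by summit pileup in fragments (horizontal axis) for the short arm, the long arm and the other chromosomes. Bars are means of the 3 lists and points the lists; the short arm rises from 4.99% to 46.8% and its bar is the lowest of the 3 in each class.

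Of the 170 union regions of the short arm, 19 (11.2%) were found in all 3 lists, near the 12.1% of all 3584 regions of the genome. A further 48 (28.2%, against 18.3% over the genome) were in 2 lists and 103 (60.6%, against 69.6%) in 1. On the long arm 33 of 177 regions (18.6%) were in all 3 lists, 30 (16.95%) in 2 and 114 (64.4%) in 1. Of the short arm's regions, replicate 2 alone had 55, replicate 3 alone 27 and replicate 1 alone 21. The pairs of lists shared 18 (1 and 2), 7 (1 and 3) and 23 (2 and 3) of them. In 17 of the 19 regions at least 1 base was covered in all 3 lists, and in 6 the lists had summits within 100 bp of each other. Their median length was 4131 bp, with a range of 705 to 17215 bp, and 11 of the 19 lay in clusters A to F.

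The 19 regions were ranked by the mean percentile of the best peak's fold within its list, and the first 15 are named with their folds. Folds of different lists are set side by side as a description, and replicates were not compared by them. First was chr19:2129096-2134219, in cluster A, with folds of 5.96, 10.0 and 5.92 in replicates 1, 2 and 3 (mean 7.29 ± 2.35, SD, n = 3) and pileups of 10, 13 and 17. Its summits were spread over 376 bp. Second was chr19:11101999-11107163, at the left end of cluster E, with folds of 6.01, 5.72 and 7.42 (mean 6.38 ± 0.912, SD, n = 3). Its summits were 1339 bp apart, although all 3 lists covered a common base.

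The third, chr19:4101137-4102467, had the closest best summits of the 19. They lay at 4101263, 4101262 and 4101257, within 6 bp of each other, and its peaks were 1331, 1212 and 1200 bp wide. Its folds were 7.03, 6.32 and 5.30 (mean 6.22 ± 0.873, SD, n = 3), with pileups of only 9, 9 and 7 fragments. The fourth, chr19:11552156-11556286, had the highest mean fold and the largest spread, with folds of 5.86, 4.86 and 12.25 (mean 7.66 ± 4.01, SD, n = 3). Its pileups were 11, 18 and 22, and the highest fold was that of replicate 3. The fifth, chr19:2110882-2112922, is the left end of cluster A, with folds of 9.26, 4.60 and 5.53 (mean 6.46 ± 2.47, SD, n = 3).

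From the sixth on, the mean percentile dropped from 85.6 to 67.8. The sixth and the 14th were the regions of cluster B, chr19:3976532-3982035 with a mean fold of 4.63 ± 0.422 and chr19:3982934-3985436 with 3.37 ± 0.949 (SD, n = 3). In the sixth, the best peak of replicate 1 had its summit at 3977674, and the best summits were spread over 3751 bp. At its summits within 9 bp of each other the folds were 3.49, 4.96 and 4.16. The seventh was chr19:1013253-1020819, with folds of 6.17, 8.21 and 3.29. Peaks there were 7567 and 7553 bp wide in replicates 1 and 2 and 926 bp in replicate 3. The eighth, chr19:18649112-18652767, had folds of 5.42, 5.69 and 3.62, and its summits in replicates 1 and 3, at 18650514 and 18650510, nearly coincided. The ninth, chr19:10909226-10913058, in cluster D, had folds of 6.33, 4.42 and 3.64 on pileups of 8, 6 and 4.

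The 10th, chr19:8510061-8527275, was the longest region, 17215 bp, with folds of 7.74, 5.08 and 3.22. It holds the 17171 bp peak of replicate 3 and its best summits lay 16558 bp apart. The 11th and 13th lay in cluster F. Of these, chr19:16204817-16207336 had folds of 4.31, 4.02 and 3.95, the smallest spread of the 19 (mean 4.09 ± 0.188, SD, n = 3), and chr19:16192765-16199496 had 5.24, 3.38 and 3.95. The best summits of the 13th lay 4938 bp apart. At its summits within 35 bp of each other the folds were 4.78, 3.38 and 2.54. The 12th, chr19:19607082-19612637, had folds of 4.10, 2.89 and 9.60. Replicates 2 and 3 shared a summit there to within 8 bp, at 19609512 and 19609504, whereas the peak of replicate 1, with its summit at 19612227, shared no base with the peak of replicate 2.

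The regions of the window from 10 to 11 Mb stood low in this order except for the ninth. The 15th, chr19:10781272-10789286 in cluster C, had folds of 4.29, 3.28 and 2.82 on pileups of 16, 8 and 22. The 18th, chr19:10506338-10511410, had folds of 3.21, 3.25 and 3.78 on pileups of 9, 25 and 7, and its summits were spread over 4120 bp. The window was thus dense in peaks in every list while its recurrent regions had modest folds. The other 3 regions, ranked 16, 17 and 19, had mean folds of 3.07 to 3.48.

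**Figure D5:**
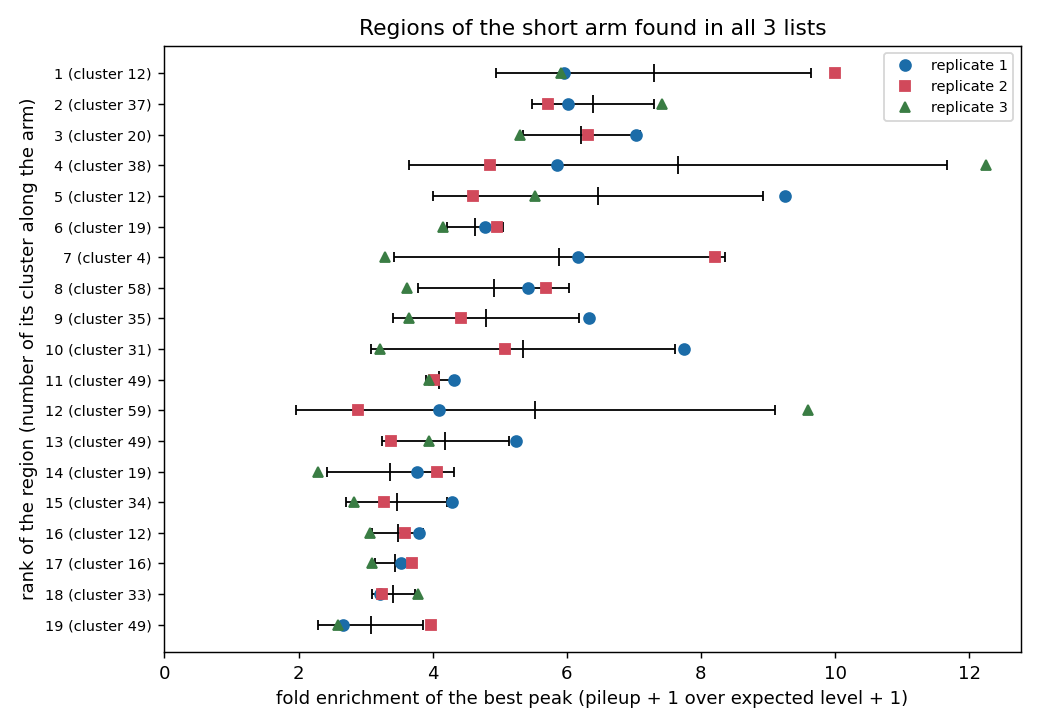
Fold of the best peak (horizontal axis, pileup + 1 over expected level + 1) in the 19 regions found in all 3 lists, from rank 1 at the top to rank 19 (vertical axis, with the number of the cluster counted along the arm). Points are replicates, with mean and SD; mean folds run from 3.07 to 7.66, and the widest spread, 4.01, belongs to rank 4.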

How the data were processed

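Peak lists of the 3 immunoprecipitates were used. The submitters' processing notes list MACS2, HISAT2, SAMtools, FastQC and GATK, without versions or settings. Coordinates were taken as hg19 from the sequence names, although the notes give hg38. In the deposited lists each peak has a fold, the ratio of pileup plus 1 to expected level plus 1, with −log10 p and −log10 q values from the authors' peak calling. The deposited score repeats the −log10 q and was not used. The caller's control sample and the library depths are unknown.

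The pileup at each summit was recovered as the whole number up to 400 that gave both the deposited fold and −log10 p within 0.0005, by MACS2's formulas. This succeeded for all 266 peaks of the short arm. Intervals are exact Poisson intervals and cover counting error only. A summit within 0.5% of the lowest expected level of its list was called at the floor. Recurrence needed 1 bp of overlap. For each measure the 3 within-list differences were tested by a two-sided exact sign-flip permutation test. There were 22 such contrasts over 11 measures and 6 more by pileup class. Their smallest p was 0.25, so none passes 0.05 with or without adjustment.

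The 15 named regions are those of highest mean percentile of fold among regions in all 3 lists, with every such region from 10 to 11 Mb added. The members and lists were chosen with earlier results of these data known. The pileup classes, the shares of deep, high-fold and above-floor summits, and the criterion for lettered clusters were chosen after the data were seen. The plan named genes only with hg19 annotation, so positions alone are given, and no sequence was read because no genome of that build was used. Alternatives were a stricter q or fold, peaks under 10 kb, other overlap rules, arm length, window grid and cluster gap, and leaving out each replicate. On simulated data 100% of 382 pileups were recovered, which tests the search only. The software was scipy 1.17.1, pandas 2.3.3, numpy 2.4.6 and matplotlib 3.10.9 under Python 3.11.15, with chromosome lengths of hg19 from pyranges 0.1.4.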

Additional observations from a re-analysis of the deposited data

How the results depend on the processing

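Of 105 alternative values, 13 differences reversed and 12 counts or levels moved. Of 48 differences that kept their direction, 18 moved by over 1.5 times. The mean differences in density from both other sets kept their sign under the alternatives run. So did those in median width and depth from the other chromosomes. With a stricter q the differences in density and depth shrank in absolute terms, as given with these results. All sets then had fewer peaks, and the short arm's mean share of the list rose from 4.85% to 8.19%. Differences are the short arm minus the other set. Limited to a −log10 q of 5 or more, the short arm had 21.7 peaks per list, or 8.19% of the list, in 27 clusters, with 4 regions in all 3 lists, 0 windows with at least 5 peaks in every list and 0 clusters with at least 3. The difference in median fold from the other chromosomes became -0.356, and those in recurrence became 6.58 points from the long arm and 2.00 from the other chromosomes. With a fold of at least 5 the short arm had 26 peaks per list, or 6.95% of the list. With peaks under 10 kb, the recurrence difference from the other chromosomes became 1.15 points. With summits within 100 bp, 6 regions were in all 3 lists and the recurrence differences became 5.02 points from the long arm and 2.72 from the other chromosomes.

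Leaving out 1 replicate at a time gave differences from the long arm of -254.8 to 117.8 bp in median width, -0.100 to 0.0408 in median fold, -3.53 to 1.34 points in the share with a pileup of at least 10, and -11.2 to 2.31 points in recurrence, the highest without replicate 1. Against the other chromosomes the recurrence difference was 0.918 to 7.35 points. With 2 lists a peak needs a match in only 1 other, so these shares have another meaning, and 28 to 42 regions were then in all lists, with 5 to 9 clusters of at least 3 peaks per list. The cause of the other changes was not tested. No paired analysis was possible because the inputs, which share the replicate numbers, have no peak list here. Many summits rest on 4 or 5 fragments, and 3 lists cannot give an exact p below 0.25.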
